A study of Mus musculus with 40 samples.

Results

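The genes described here are those whose response to Gpr3 overexpression in brown adipose tissue (BAT) differed between diets. They were found by subtracting the effect of the transgene in chow-fed mice from its effect in mice fed a high-fat diet (HFD), a difference called the interaction, for every gene in the count table. The interaction passed an adjusted p-value of 0.05 for 276 of 13277 tested genes (2.08%), by the quasi-likelihood test of edgeR. Of these, 179 had a more positive effect on HFD (1.35% of tested genes) and 97 a more negative one (0.731%). Sorted by the signs of the fitted effects, 64 genes showed stronger induction on HFD, 17 weaker induction, 17 a stronger decrease, 11 a weaker decrease and 167 an effect whose fitted sign reversed between diets. The sorting follows from the same values and is a description.

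BAT burns fatty acids for heat, and signals that raise cyclic AMP (cAMP) through Gs-coupled receptors switch this program on. GPR3 is a Gs-coupled receptor with high activity in the absence of a ligand, so its level of transcript sets how much it signals. Cyclic AMP activates protein kinase A, which releases stored fatty acids and, through factors that include CREB at cAMP response elements (CRE), alters transcription. Fatty food is itself a stimulus for BAT.

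The series holds 40 BAT libraries of male mice kept at 29 °C, and the comparison rests on 20 of them, with 5 mice in each of 4 groups. C-3BO mice carried a Gpr3 transgene at the Rosa26 locus behind a stop cassette that Ucp1-Cre removes, so the receptor was made in Ucp1-expressing brown and beige adipocytes from early life. Control littermates, labelled WT, carried either the transgene without Cre or Cre without the transgene. The mice were 13 to 19 weeks old and ate chow or, for the last 7 days, HFD with 60% of its energy from fat. A second cohort of 20 mice, 15 weeks old, received saline or 1 mg/kg of CL, an agonist of the β3-adrenergic receptor, on 9 days, on chow or on HFD for 7 days. Those mice were labelled wildtype. According to the paper they were control littermates of I-3BO mice, a line with the same transgene and the tamoxifen-inducible Ucp1-CreERT2. Such controls carried either the transgene without Cre or Cre without the transgene. The injected mice entered the fit and served as a separate readout.

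Library totals in the C-3BO cohort were 5026435 to 14193478 counts (median 9481128), so that 3 counts, taken as the lowest visible level, corresponded to 0.206 to 0.615 CPM. CPM are counts scaled to a common library size. The lowest totals were in the HFD C-3BO group (5026435 to 9122767). Gpr3 itself lay between 0.0687 and 0.744 CPM in the 10 control mice. It was 445, 266, 381, 463 and 323 CPM in the chow C-3BO mice and 688, 846, 709, 801 and 919 CPM in the HFD C-3BO mice, so every library matched its genotype label. Gpr3 was higher on HFD than on chow within the C-3BO mice (log2 fold change 1.08 ± 0.31 SE, edgeR adjusted p = 0.00847), and its interaction was not called (1.53 ± 1.11, adjusted p = 0.550). With control values around the lowest visible level, the missing call does not show an equal effect on the 2 diets. Diet and Gpr3 level thus changed together in the C-3BO mice. Their parts in the interactions cannot be told apart in this design and were not tested. The markers of brown adipocytes were present in every library, with a summed level of 12946 to 34695 CPM.

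Transcripts of liver and epididymis, which go against the tissue label, were present in HFD C-3BO replicates 4 and 5 and in all 10 HFD libraries of the injected cohort. HFD C-3BO replicates 4 and 5 held 532 and 507 CPM of 21 liver markers, against 1.34 to 5.17 CPM in the other 18 libraries of the C-3BO cohort, and 64.8 and 59.8 CPM of 9 epididymis markers, against 0 to 0.979. In the injected cohort the liver markers summed to 103 to 312 CPM with saline and 184 to 351 CPM with CL on HFD, against 1.67 to 5.73 on chow, and the epididymis markers to 9.03 to 30.0 and 18.5 to 44.9 CPM on HFD, against 0 to 0.681 on chow. Alb, the main plasma protein made by liver, was 294 and 272 CPM in HFD C-3BO replicates 4 and 5 and 0.111 to 1.62 CPM in the rest of that cohort, and 62.2 to 170 CPM with saline and 97.2 to 191 CPM with CL on HFD. Lcn8, an epididymal lipocalin, was 38.9 and 34.6 CPM in those replicates and 0 in the rest of that cohort, and 6.02 to 19.2 and 12.4 to 31.8 CPM with saline and CL on HFD. None of the 19 tested liver markers passed the interaction test by edgeR, while 9 had an unadjusted p-value under 0.05 and 5 passed by DESeq2. Without HFD C-3BO replicates 4 and 5, 126 of 13549 tested genes passed (0.930%), of which 116 were among the 276. All 276 kept the sign of their interaction, which is no separate evidence, since they were selected on mostly the same libraries. The sorted counts were then 24 for stronger induction, 4 for weaker induction, 9 for stronger decrease, 6 for weaker decrease and 83 for reversed sign. Leaving out single libraries gave 172 genes (without HFD C-3BO replicate 4) to 427 (without chow C-3BO replicate 3), with 179 and 415 without HFD control replicates 1 and 4. Leaving out any other pair of HFD C-3BO libraries gave 120 to 272 genes, and the 126 without replicates 4 and 5 lay near the low end. Most of those pairs also lacked replicate 4 or 5, so their range cannot show whether these libraries weigh more than others. Without HFD C-3BO replicates 1, 2, 3, 4 and 5 singly, 266, 267, 250, 172 and 221 genes were called. Without the 10 HFD libraries of the injected cohort, which enter the fit through the filter, scaling and spread, 194 of 13070 genes passed, 186 of them among the 276. Calls that were lost without HFD C-3BO replicates 4 and 5 are given as such with the genes they concern.

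**Figure D1:**
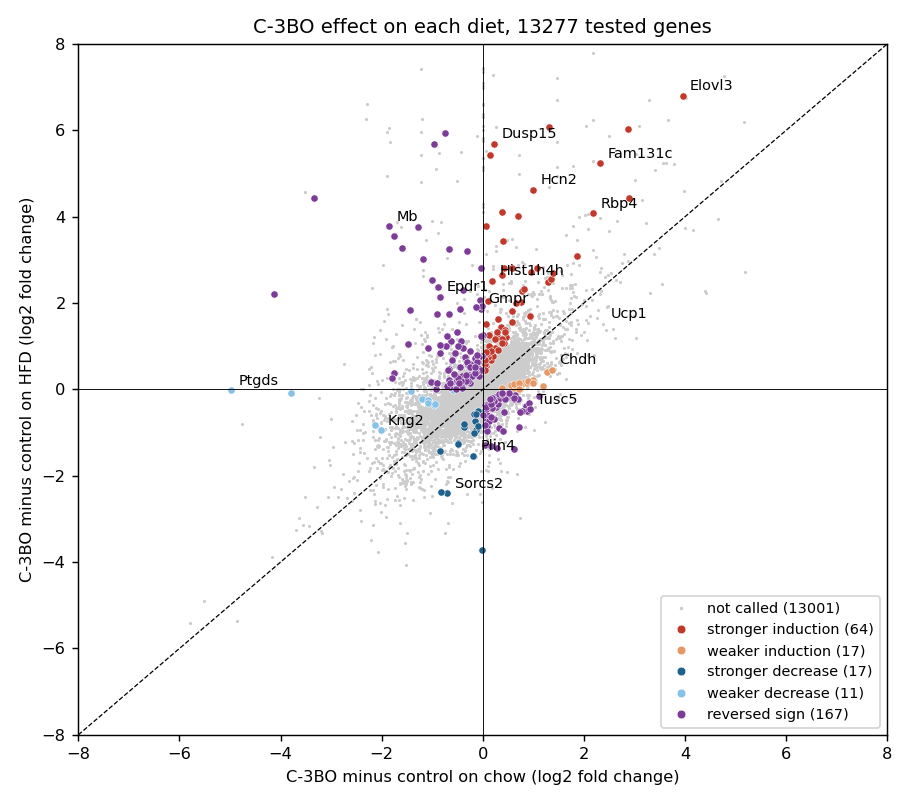
The log2 fold change of C-3BO against control on chow (x) and on HFD (y) is plotted for the tested genes, with the 276 interaction genes coloured by their sort and equal effects on the dashed line (7 genes lie outside the axes). Hcn2, Dusp15 and Elovl3 sit far above the line, Ptgds lies at the left with an effect of -0.02 on HFD, and Plin4 and Sorcs2 lie below the line.

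The C-3BO effect itself was called for 4200 genes on chow (31.6%) and for 4618 on HFD (34.8%), so most genes that moved did so without a detectable interaction. With the study's thresholds, a log2 fold change above 1 and an adjusted p-value under 0.05, 204 genes were induced on both diets, 111 on chow only and 372 on HFD only. Over all tested genes 2.08% had a called interaction. Of the 372 genes induced on HFD alone, 70 (18.8%) had one, and 266 (71.5%) had a positive fold change on chow as well. Of the 432 genes reduced on chow alone, 18 (4.17%) had a called interaction, and 357 (82.6%) were lower on HFD too. None of the 207 genes reduced on both diets had a called interaction by edgeR or DESeq2, and 22 of them had an unadjusted p-value under 0.05. At the share called over all tested genes, few calls fall in a set of 207. Passing the thresholds on 1 diet and missing them on the other thus mostly came without a called difference between the diets.

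The promoters of the induced genes are given before their values because cAMP acts on transcription partly through CRE. RefSeq promoters (build GRCm38.p6, from 250 bases before to 50 bases after the start of a transcript) were matched to 10533 of the 13277 tested genes by accession. The CRE octamer TGACGTCA, searched on both strands, was present in 387 of 13477 promoters of tested genes (2.87%) and in 4 of 66 promoters of stronger induction genes (6.06%). The half-site TGACG, which every octamer contains, was in 29.4% of promoters of tested genes and in 21.2% of those of stronger induction genes. The octamer was in 1 of 168 promoters of reversed genes (0.595%) and in none of the 24, 17 and 8 promoters of the weaker induction, stronger decrease and weaker decrease genes. The 4 promoters belonged to Hist1h4h, Mdh2, Ndufa10 and Pgap2, of which Ndufa10 and Pgap2 lost their call without HFD C-3BO replicates 4 and 5 (edgeR adjusted p = 0.0988 and 0.0529). These counts describe letters in a window and were not tested. The promoters of Hist1h4h (chr13:23530794-23531093, plus strand), Mdh2 (chr5:135778399-135778698, plus strand), Ndufa10 (chr1:92473709-92474008, minus strand) and, as the gene with the lowest interaction p-value, Hcn2 (chr10:79716384-79716683, plus strand) are printed 5′ to 3′, with the octamer in capitals. The octamer starts 70, 127 and 67 bases before the start in the first 3, and Hcn2 holds neither octamer nor half-site in this window.
Hist1h4h: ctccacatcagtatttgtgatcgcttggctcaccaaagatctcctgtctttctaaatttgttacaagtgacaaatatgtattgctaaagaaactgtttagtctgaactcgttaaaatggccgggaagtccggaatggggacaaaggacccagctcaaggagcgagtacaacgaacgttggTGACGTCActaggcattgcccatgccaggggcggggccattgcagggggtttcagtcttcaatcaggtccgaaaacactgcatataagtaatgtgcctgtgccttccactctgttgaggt
Mdh2: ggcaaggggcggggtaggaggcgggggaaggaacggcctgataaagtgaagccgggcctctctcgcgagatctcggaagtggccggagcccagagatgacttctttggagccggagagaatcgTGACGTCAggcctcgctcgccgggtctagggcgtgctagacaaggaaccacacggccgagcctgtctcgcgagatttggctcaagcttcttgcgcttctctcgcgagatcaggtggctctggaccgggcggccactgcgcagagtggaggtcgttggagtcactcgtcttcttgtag
Ndufa10: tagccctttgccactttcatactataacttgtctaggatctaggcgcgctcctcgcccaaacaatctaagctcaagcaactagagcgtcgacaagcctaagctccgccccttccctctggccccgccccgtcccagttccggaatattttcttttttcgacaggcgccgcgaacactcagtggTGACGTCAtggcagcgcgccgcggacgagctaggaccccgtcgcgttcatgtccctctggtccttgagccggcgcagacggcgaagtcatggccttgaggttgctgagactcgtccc
Hcn2: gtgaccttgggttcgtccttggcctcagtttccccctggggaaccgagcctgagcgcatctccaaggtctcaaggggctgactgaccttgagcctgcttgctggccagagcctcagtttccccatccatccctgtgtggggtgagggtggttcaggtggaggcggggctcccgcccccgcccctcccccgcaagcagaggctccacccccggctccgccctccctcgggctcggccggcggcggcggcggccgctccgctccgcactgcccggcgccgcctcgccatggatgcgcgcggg

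By their definition the 64 stronger induction genes had effects above 0 that were larger on HFD. Their median log2 fold change was 0.36 on chow and 1.53 on HFD. The C-3BO effect was called on both diets for 24 of them and on HFD only for 40. Hcn2 (chromosome 10, 79179378 to 79198853, mm9) encodes a channel that opens at negative voltage and binds cAMP directly. It was 4.22, 5.57, 5.38, 4.03 and 4.39 CPM in chow control mice and 9.05, 7.76, 5.14, 13.7 and 11.2 CPM in chow C-3BO mice. On HFD it was 3.31, 2.58, 5.63, 3.85 and 4.17 CPM in control mice and 82.2, 121, 79.3, 116 and 87.7 CPM in C-3BO mice. The lowest HFD C-3BO value was thus far above every other group, while 1 chow C-3BO mouse lay within the range of its controls. The induction was 1.00 ± 0.27 on chow and 4.62 ± 0.27 on HFD in log2 units, and the interaction was 3.63 ± 0.38 (edgeR adjusted p = 1.29e-07), or 3.58 without replicates 4 and 5.

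Dusp15, a dual-specificity phosphatase, went from near the detection limit to a clear signal. Its levels were 0.507 to 1.57 CPM in chow control mice, 0.232 to 1.44 CPM in chow C-3BO mice and 0.0720 to 1.17 CPM in HFD control mice. In HFD C-3BO mice they were 14.4, 27.0, 24.7, 30.0 and 22.3 CPM. Only the HFD C-3BO group separated from the rest, and the effect was 0.22 ± 0.52 on chow and 5.69 ± 0.47 on HFD (interaction 5.47 ± 0.71, edgeR adjusted p = 8.88e-06).

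Several histone transcripts were among the interaction genes. Hist1h4h, a histone H4 gene, was 19.2, 14.6, 11.9, 14.9 and 12.8 CPM in chow control mice and 17.5, 16.2, 25.3, 12.1 and 12.2 CPM in chow C-3BO mice. On HFD it was 3.53, 5.43, 7.83, 9.76 and 8.23 CPM in control mice and 44.9, 44.6, 39.3, 28.5 and 41.4 CPM in C-3BO mice. The genotypes overlapped on chow and did not overlap on HFD, where the level fell in control mice (-1.08 ± 0.22, adjusted p = 1.74e-04 by edgeR) and rose in C-3BO mice (1.26 ± 0.21, adjusted p = 3.00e-05). Hist1h2be, a histone H2B gene, had effects of 0.37 ± 0.25 on chow and 2.65 ± 0.26 on HFD. Of the 62 histone genes of the Hist clusters, a grouping made after the values were seen, 11 passed the filter on low counts and 4 of these were called: Hist1h2bc, Hist1h4h, Hist1h2be and Hist1h1c. Over all tested genes 2.08% were called. The median interaction of the 11 was 1.94, and that of the 6 with at least 10 counts in each library of the C-3BO cohort was 1.21. Without HFD C-3BO replicates 4 and 5 the call of Hist1h2bc was lost (edgeR adjusted p = 0.0990). Histone genes share long stretches of sequence, so the assignment of reads to single members is uncertain, and the libraries were poly(A)-selected. The cell cycle list, described further on, had no called member.

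In Rbp4, Fam131c and Elovl3 the control level was lower on HFD. Rbp4, which carries retinol in blood, was 92.8, 148, 64.7, 65.6 and 77.6 CPM in chow control mice and 26.9, 23.0, 25.8, 34.0 and 22.4 CPM in HFD control mice. In C-3BO mice it was 350 to 454 CPM on chow and 409 to 479 CPM on HFD. The levels of C-3BO mice overlapped between diets (0.14 ± 0.20, adjusted p = 0.636) and those of control mice did not (-1.76 ± 0.21, adjusted p = 5.73e-08 by edgeR), so that the induction was 2.18 ± 0.20 on chow and 4.08 ± 0.22 on HFD. Fam131c was similar in this respect, at 3.24 to 9.29 CPM in chow control, 0.216 to 2.96 in HFD control, 21.0 to 31.8 in chow C-3BO and 35.4 to 58.1 in HFD C-3BO mice. Elovl3, which elongates very long chain fatty acids in brown fat, was 31.5, 39.6, 37.0, 19.6 and 28.2 CPM in chow control mice and 0.288, 0.534, 4.19, 6.36 and 0.358 CPM in HFD control mice. It was 402 to 610 CPM in chow C-3BO and 183 to 391 CPM in HFD C-3BO mice. The larger fold on HFD (6.80 ± 0.50 against 3.95 ± 0.41) therefore came with a lower level in C-3BO mice, and Elovl3 was, with Acot12, 1 of the 2 stronger induction genes whose gain in CPM was smaller on HFD.

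Adcy3, an adenylyl cyclase that makes cAMP, differed in that the levels of control mice overlapped between diets. It was 137, 157, 110, 105 and 131 CPM in chow control and 119, 127, 132, 112 and 135 CPM in HFD control mice. In C-3BO mice it was 210, 175, 184, 279 and 225 CPM on chow and 481, 644, 416, 567 and 444 CPM on HFD. The groups of C-3BO mice did not overlap between diets, and the interaction was 1.28 ± 0.27 (edgeR adjusted p = 0.00573). Mogat1, which makes diacylglycerol from monoacylglycerol, had effects of 1.29 ± 0.20 and 2.48 ± 0.21 on chow and HFD, and its call was lost without HFD C-3BO replicates 4 and 5 (edgeR adjusted p = 0.0543). Chosen after their values were seen, Fndc5, the precursor of irisin, had effects of 0.37 ± 0.50 and 4.10 ± 0.57, and Acot12, an acetyl-CoA hydrolase, 2.88 ± 0.36 and 6.04 ± 0.51. The chow control values of Fndc5 are set beside muscle markers further on.

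**Figure D2:**
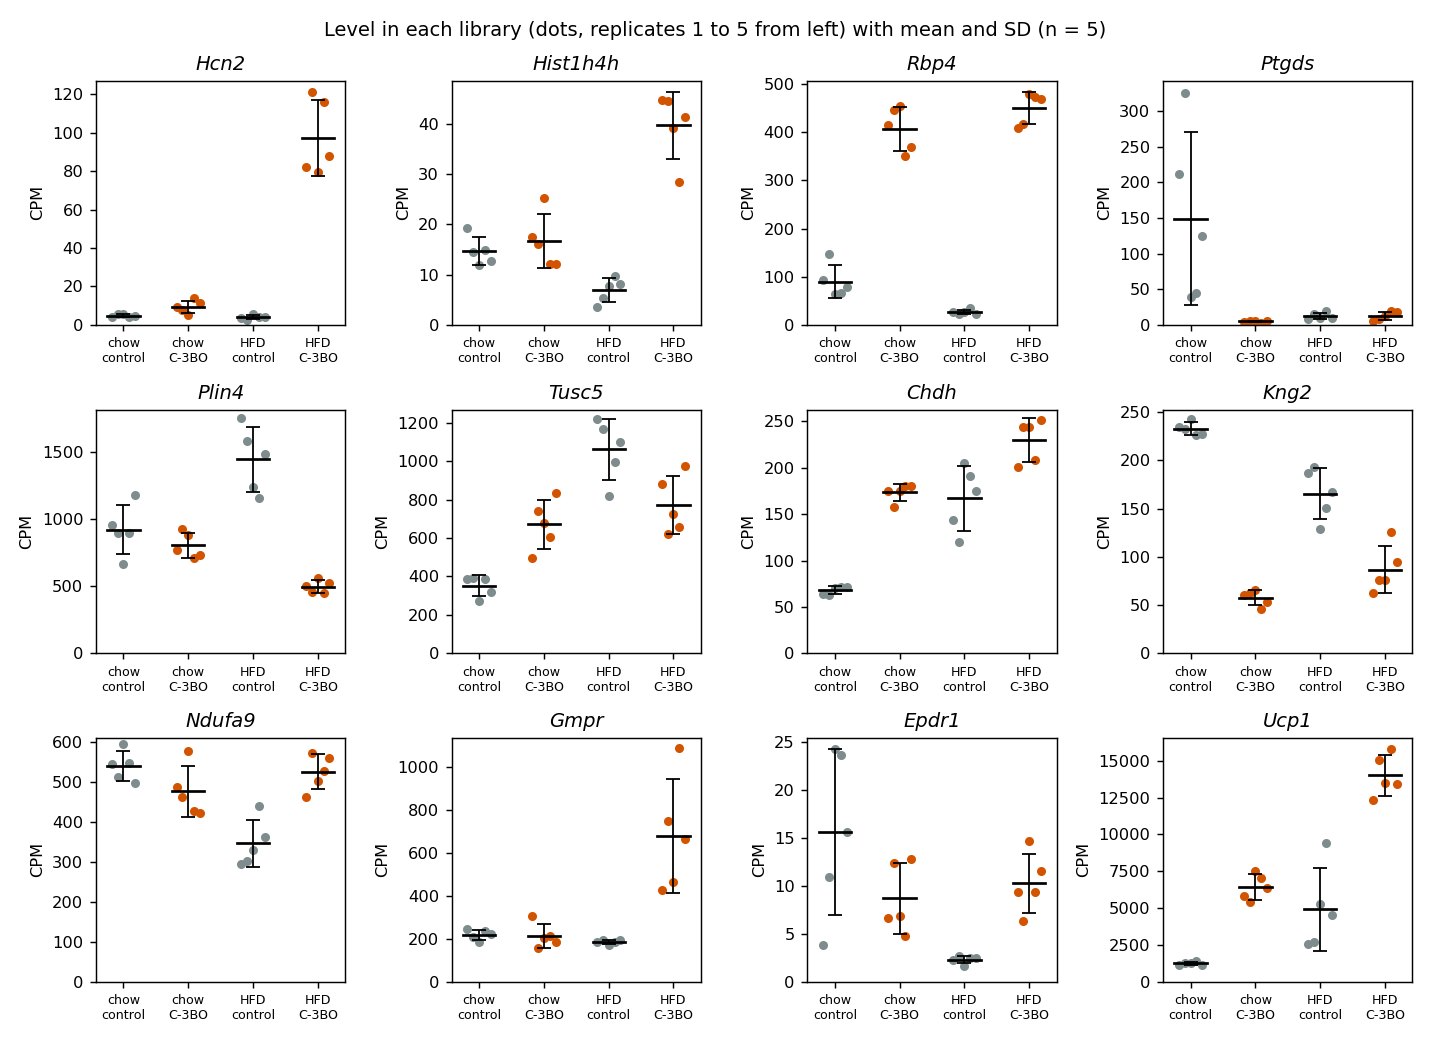
Levels in CPM (y, linear from 0) of 12 genes are shown for the 5 libraries of each group (dots, replicates 1 to 5 from the left), with the mean as a line and the SD as the error bar; control is grey and C-3BO orange. Hcn2 is high only in the HFD C-3BO group, Rbp4 drops in HFD control mice, Ptgds is high and scattered in chow control mice, and Ucp1 is highest in HFD C-3BO mice.

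The 17 weaker induction genes had a median fold change of 0.79 on chow and 0.14 on HFD, and 16 were called on chow only. In 15 of the 17 the level in control mice rose with HFD. Chdh, the first enzyme of choline oxidation, was 64.2, 62.5, 70.2, 71.0 and 71.4 CPM in chow control mice and 175, 158, 175, 180 and 180 CPM in chow C-3BO mice. On HFD it was 144, 120, 205, 191 and 175 CPM in control mice and 201, 244, 244, 208 and 252 CPM in C-3BO mice. HFD controls thus reached the level of chow C-3BO mice (diet effect in controls 1.30 ± 0.12, edgeR adjusted p = 7.00e-10), and the induction was 1.36 ± 0.12 on chow and 0.46 ± 0.12 on HFD. Zfp36l2, which promotes decay of mRNA, followed the same order, at 62.1 to 86.5 CPM in chow control, 123 to 214 in chow C-3BO, 156 to 216 in HFD control and 151 to 242 in HFD C-3BO mice (interaction -1.10 ± 0.21, adjusted p = 0.00222 by edgeR). Pwwp2b had effects of 0.99 ± 0.11 and 0.14 ± 0.11, H6pd, which makes NADPH in the endoplasmic reticulum, 0.88 ± 0.11 and 0.15 ± 0.11, and Pip4k2c, a phosphoinositide kinase, 0.62 ± 0.09 and 0.03 ± 0.09.

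Ucp1, the uncoupling protein of brown fat, also had higher levels in C-3BO mice on both diets but did not pass the interaction test. It was 1149, 1297, 1257, 1378 and 1116 CPM in chow control and 5790, 5384, 7540, 7068 and 6394 CPM in chow C-3BO mice. Under HFD it was 2574, 2703, 5258, 9447 and 4546 CPM in control and 12346, 15072, 13469, 15808 and 13438 CPM in C-3BO mice. The genotypes did not overlap on either diet, and HFD control mice spread more than any other group. The fold change was 2.38 ± 0.28 on chow and 1.52 ± 0.27 on HFD (interaction -0.86 ± 0.37, edgeR adjusted p = 0.243). On the CPM scale the mean gain was 5196 on chow and 9121 on HFD, a difference of 3925 ± 1451 (SE), so the sign of its diet dependence differed between the scales. Among the 276 genes, the sign differed between the log2 and the CPM scale for 3, and among all tested genes for 1090.

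The 17 stronger decrease genes had medians of -0.17 on chow and -0.95 on HFD. Plin4, a coat protein of lipid droplets, was 956, 897, 668, 898 and 1181 CPM in chow control mice and 773, 923, 882, 708 and 733 CPM in chow C-3BO mice. In the mice on HFD it was 1752, 1586, 1243, 1161 and 1487 CPM in control and 501, 454, 558, 446 and 523 CPM in C-3BO mice. The genotypes overlapped on chow and were far apart on HFD, and Plin4 rose with HFD in controls (0.65 ± 0.14, edgeR adjusted p = 3.22e-04) and fell in C-3BO mice (-0.69 ± 0.14, adjusted p = 2.90e-04). Pygb, a glycogen phosphorylase, was 143 to 195 CPM in chow control, 142 to 177 in chow C-3BO, 230 to 304 in HFD control and 118 to 164 in HFD C-3BO mice (interaction -0.83 ± 0.14). Actn4, an actin crosslinker, and Tspan7, a tetraspanin, had interactions of -0.41 ± 0.11 and -0.51 ± 0.12, with effects on chow of -0.09 ± 0.08 and -0.01 ± 0.09.

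Ntrk3, the receptor of neurotrophin-3, was 134 to 222 CPM in chow control, 96.6 to 145 in chow C-3BO, 135 to 169 in HFD control and 52.5 to 78.9 in HFD C-3BO mice. Sorcs2, a receptor of the sortilin family, was 161, 171, 194, 149 and 162 CPM in chow control and 114, 96.8, 110, 51.8 and 143 CPM in chow C-3BO mice. It was 43.5, 41.4, 26.9, 48.3 and 34.8 CPM in HFD control and 8.03, 5.53, 5.14, 8.36 and 11.1 CPM in HFD C-3BO mice. Sorcs2 thus fell with HFD in both genotypes, and the effect of C-3BO was -0.70 ± 0.27 on chow and -2.40 ± 0.33 on HFD (interaction -1.69 ± 0.42, edgeR adjusted p = 0.0231). In CPM its drop was smaller on HFD, where the control level was lower.

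The 11 weaker decrease genes had medians of -1.21 on chow and -0.24 on HFD. Ptgds (chromosome 2, 25322231 to 25325269, mm9), the lipocalin-type prostaglandin D synthase, was 211, 326, 38.6, 44.3 and 125 CPM in chow control mice and 4.07, 5.56, 5.26, 3.21 and 5.44 CPM in chow C-3BO mice. In HFD-fed mice it was 8.35, 14.6, 9.21, 19.5 and 9.42 CPM in control and 5.17, 8.47, 12.2, 19 and 17.4 CPM in C-3BO mice. The chow controls alone stood high, and the effect was -4.98 ± 0.44 on chow and -0.02 ± 0.40 on HFD (interaction 4.96 ± 0.59, edgeR adjusted p = 1.69e-06). In the other cohort the chow saline mice, labelled wildtype and given no CL, had only 7.24, 5.57, 8.86, 7.21 and 5.96 CPM, below every chow control of the C-3BO cohort. The 2 sets of chow mice differed in cohort, breeding line, injection and age, and the difference in Ptgds between them was not tested.

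Kng2, a kininogen, was 226 to 243 CPM in chow control and 46.2 to 65.2 in chow C-3BO mice, and 129 to 193 CPM in HFD control and 62.3 to 126 in HFD C-3BO mice, without overlap of the genotypes on either diet (effects -2.02 ± 0.15 and -0.94 ± 0.14). Pck2, the mitochondrial phosphoenolpyruvate carboxykinase, had effects of -2.13 ± 0.22 and -0.82 ± 0.21, and Oat, an enzyme of ornithine metabolism, -0.94 ± 0.09 and -0.35 ± 0.09. Nasp, a histone chaperone, was 13.2 to 17.2 CPM in chow control, 6.57 to 8.17 in chow C-3BO, 11.5 to 17.5 in HFD control and 8.20 to 12.4 in HFD C-3BO mice. Fam92a had effects of -1.21 ± 0.18 and -0.23 ± 0.18.

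The 167 reversed genes were those with fitted effects of opposite sign, and for most of them only 1 of the 2 effects passed its own test. The effect was called on HFD only for 92, on chow only for 49 and on both diets for 26. Of those 26, 14 were lower with C-3BO on chow and higher on HFD, and 12 the reverse. Tusc5, which takes part in the movement of the glucose transporter GLUT4, belonged to the 12. It was 388, 393, 270, 388 and 320 CPM in chow control and 497, 739, 677, 607 and 837 CPM in chow C-3BO mice. During HFD it was 1222, 1169, 820, 997 and 1102 CPM in control and 884, 623, 726, 660 and 974 CPM in C-3BO mice. The levels of C-3BO mice overlapped between diets (0.20 ± 0.15, adjusted p = 0.331) while those of control mice moved from below to mostly above them (1.59 ± 0.15, adjusted p = 7.00e-10 by edgeR). The effect was 0.93 ± 0.15 on chow and -0.46 ± 0.15 on HFD.

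Ptrf, which encodes the caveolar coat protein cavin-1, had effects of 0.61 ± 0.09 on chow and -0.22 ± 0.09 on HFD, where 730 CPM in HFD C-3BO replicate 4 was the lowest of its group and the others held 986 to 1136. Rasl12, a small GTPase, had 0.73 ± 0.14 and -0.53 ± 0.13, both called by edgeR. Sugct, which transfers coenzyme A to glutarate, was 15.7 to 18.7 CPM in chow control, 27.0 to 36.2 in chow C-3BO, 13.8 to 19.4 in HFD control and 9.17 to 16.2 in HFD C-3BO mice. Only its chow C-3BO mice stood apart, and its effect on HFD was not called (-0.32 ± 0.14, edgeR adjusted p = 0.0709).

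Among genes that went the other way, Gmpr, which converts GMP to IMP, was 246, 208, 187, 234 and 221 CPM in chow control and 306, 157, 204, 213 and 186 CPM in chow C-3BO mice. Under HFD it was 183, 195, 171, 184 and 196 CPM in control and 425, 750, 462, 1088 and 665 CPM in C-3BO mice. Its effect on chow was -0.04 ± 0.20 and on HFD 1.87 ± 0.20, so its reversal of sign rests on a chow value close to 0. Epdr1, a secreted protein related to ependymin, was 3.80, 10.9, 24.2, 23.6 and 15.6 CPM in chow control and 6.63, 12.4, 6.81, 4.76 and 12.8 CPM in chow C-3BO mice. In the mice on HFD it was 2.23, 2.67, 1.65, 2.51 and 2.50 CPM in control and 9.39, 6.32, 14.7, 9.38 and 11.5 CPM in C-3BO mice. The chow control values of Epdr1 are set beside muscle markers below. Xbp1, a factor of the unfolded protein response, had effects of -0.65 ± 0.11 and 0.14 ± 0.11, and Ldhb, a lactate dehydrogenase subunit, -0.33 ± 0.10 and 0.33 ± 0.10, the latter called on both diets.

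Several transcripts known from striated muscle were in the reversed group, named here after their values were seen. Mb, the oxygen store myoglobin, was 22.4, 146, 316, 282 and 229 CPM in chow control, 16.4, 103, 44.2, 37.8 and 74.5 CPM in chow C-3BO, 4.03, 2.31, 3.09, 0.814 and 7.99 CPM in HFD control and 18.1, 39.5, 40.3, 98.7 and 45.3 CPM in HFD C-3BO mice. Scn4b, a sodium channel subunit, Sypl2, a triad protein, and Ank1, an ankyrin, had interactions of 5.05 ± 0.91, 4.88 ± 0.92 and 3.27 ± 0.58. The summed level of 11 skeletal muscle markers was 976 to 11448 CPM in chow control, 528 to 4552 in chow C-3BO, 36.6 to 304 in HFD control and 53.0 to 127 in HFD C-3BO mice. All 11 were lower on HFD in both genotypes. None had a called interaction by edgeR or DESeq2, and 1 had an unadjusted p-value under 0.05. On HFD the marker sums overlapped between genotypes, while Mb did not (3.78 ± 0.74, edgeR adjusted p = 1.24e-04). On chow, Mb was lower in C-3BO mice (-1.85 ± 0.61), as was the median of the muscle markers (-1.64). In chow control replicates 1 to 5 the marker sum was 976, 5518, 11448, 10756 and 8550 CPM. Epdr1, at 3.80, 10.9, 24.2, 23.6 and 15.6 CPM, was also lowest in replicate 1 there. The same held for Fndc5, at 2.23, 7.90, 19.6, 21.4 and 17.8 CPM. The part of muscle in the chow values of these genes was not tested. In bulk tissue fewer cells of a type cannot be told from less RNA per cell. With the muscle markers as a covariate, 246 genes were called, 230 of them among the 276.

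The interaction is equally the difference between the diet change in C-3BO mice and that in control mice, which shows the genotype in which the level moved. HFD altered 4366 genes in control mice (32.9%) and 3408 in C-3BO mice (25.7%). Of the 276 genes, the diet change was called in controls only for 132, in C-3BO mice only for 86, in both for 57 and in neither for 1. Of the 64 stronger induction genes, 40 fell with HFD in control mice and 34 rose in C-3BO mice, with 11 called in both genotypes. Of the 167 reversed genes, 78 moved with diet in controls only, 52 in C-3BO mice only and 36 in both. Over the 276 genes a fall in controls (121) was more frequent than a rise (68), and in C-3BO mice a rise (96) more frequent than a fall (47). Such a tilt follows from the selection, since 179 of the 276 interactions were positive. Over all tested genes 2320 fell and 2046 rose in controls, and 1791 rose and 1617 fell in C-3BO mice.

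**Figure D3:**
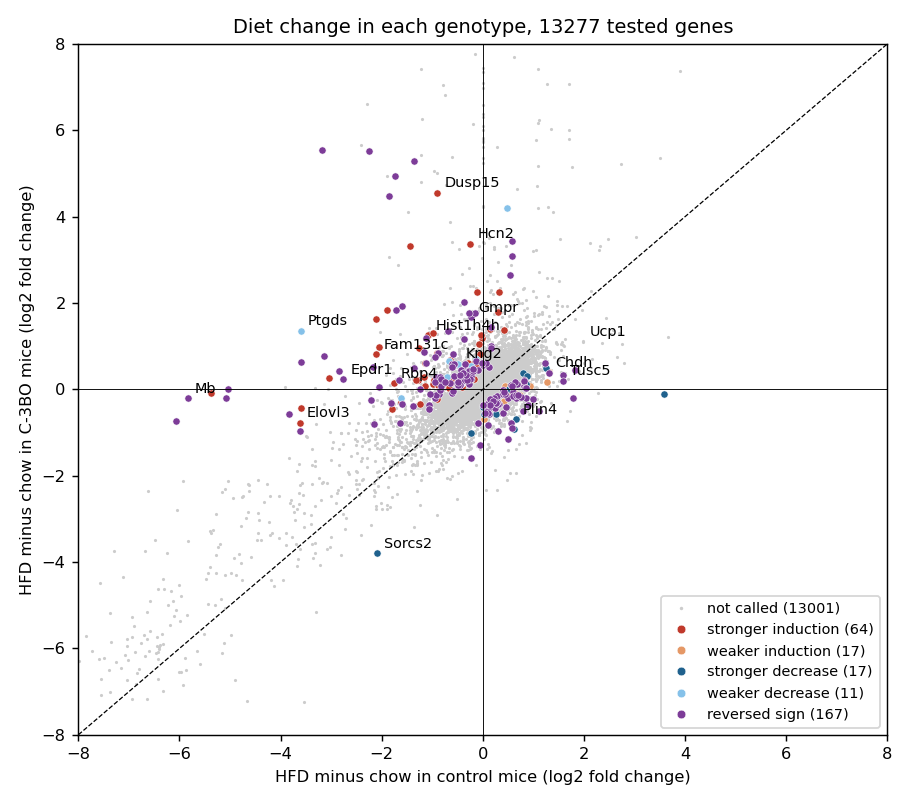
The log2 fold change of HFD against chow is plotted for control mice (x) and C-3BO mice (y), with interaction genes coloured by their sort and equal changes on the dashed line (24 genes lie outside the axes). Hcn2 and Dusp15 lie near the vertical axis, having moved in C-3BO mice, whereas Rbp4, Epdr1, Mb and Tusc5 lie near the horizontal axis, having moved in controls. The part of muscle in the values of Epdr1 and Mb was not tested.

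Genes of oxidative phosphorylation, the chain that the mitochondrial uncoupling protein draws on, showed a shared small difference. All 23 tested members of the list had an interaction above 0, with a median of 0.36 against 0.02 over all tested genes, but only Ndufa9 and Sdhb were called. Without HFD control replicate 1, 21 of the 23 were above 0, with a median of 0.26. With C-3BO, 4 members were higher on chow and 19 on HFD. HFD lowered 11 members in control mice and 2 in C-3BO mice. Ndufa9, of complex I, was 545, 511, 594, 546 and 497 CPM in chow control and 488, 462, 577, 428 and 423 CPM in chow C-3BO mice. In HFD-fed mice it was 294, 303, 329, 440 and 363 CPM in control and 463, 573, 503, 526 and 560 CPM in C-3BO mice. HFD controls lay below every other group but for replicate 4, which exceeded the 2 lowest chow C-3BO mice (interaction 0.78 ± 0.15, edgeR adjusted p = 0.00223). Sdhb, of complex II, had effects of -0.12 ± 0.09 and 0.54 ± 0.09.

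Grouping by gene name, done after these values were seen, extended the count. Over all tested genes 2.08% were called and 7011 of 13277 interactions were above 0. Members of a family were measured in the same mice, so their signs are not separate evidence. All 36 tested Nduf genes of complex I had a positive interaction (median 0.48), and 6 were called (16.7%): Ndufa10, Ndufa9, Ndufa12, Ndufs3, Ndufs7 and Ndufs8. Their median effect was -0.12 on chow and 0.38 on HFD, 28 fell with HFD in control mice and 1 in C-3BO mice. All 17 Atp5 genes of the ATP synthase had a positive interaction (median 0.41, 3 called) and all 8 Uqcr genes of complex III (median 0.39, 2 called), as did 14 of 16 Cox genes of complex IV (median 0.47). None of the Cox genes was called by edgeR, while 8 had an unadjusted p-value under 0.05 and 4 were called by DESeq2. Of 77 genes of the mitochondrial ribosome, 67 were positive, with a smaller median of 0.20, and 3 were called. Without HFD C-3BO replicates 4 and 5, all 36 Nduf interactions were still positive (median 0.49), but only 1 was called, as were 0 Atp5 genes (median 0.39), 0 Uqcr genes (median 0.40) and 1 gene of the mitochondrial ribosome. The 20 libraries of the C-3BO cohort alone also gave 0 called Atp5 and Uqcr genes and 2 called Nduf genes, and the replicate block 0 called Uqcr genes. With library totals in place of scaling factors the Nduf median was 0.53 and 16 were called. Mdh2, the malate dehydrogenase of the citric acid cycle, was 1165 to 1446 CPM in chow control, 1251 to 1572 in chow C-3BO, 921 to 1490 in HFD control and 1790 to 2018 in HFD C-3BO mice.

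**Figure D4:**
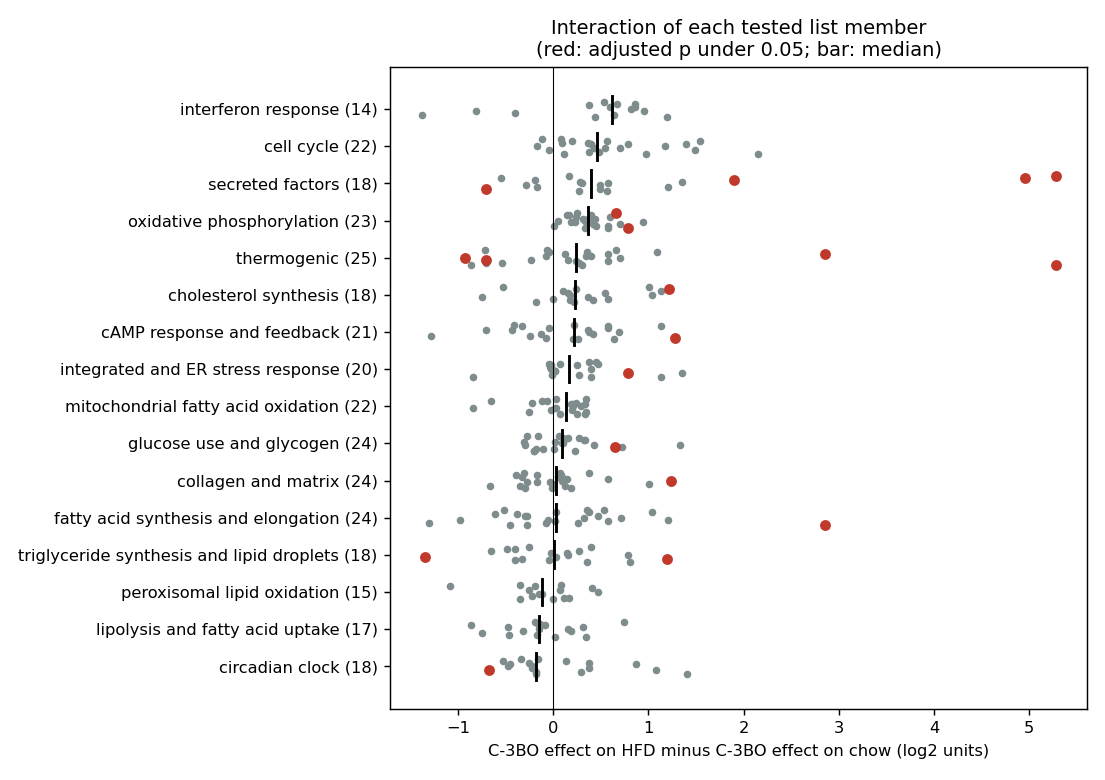
Each dot is the interaction of 1 tested gene (x, log2 units; positive means a more positive C-3BO effect on HFD), by gene list (y, number of tested members in brackets), with the median as a bar and called genes in red. The 23 oxidative phosphorylation genes all lie above 0, while the lists of fatty acid synthesis and peroxisomal oxidation have medians of 0.03 and -0.12.

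In the lists of genes that supply fuel for thermogenesis few interactions were called, while many genes were higher with C-3BO on both diets. Over all tested genes 2.08% were called. Lists of this size hold few calls at that share, so the low counts set no list apart. None of 22 mitochondrial fatty acid oxidation genes had a called interaction by edgeR or DESeq2 and 4 had an unadjusted p-value under 0.05, although 16 were higher with C-3BO on chow and 14 on HFD, with medians of 0.49 and 0.57. None of 15 peroxisomal genes was called by edgeR or DESeq2 and 1 had an unadjusted p-value under 0.05, with 11 higher on chow and 10 on HFD. None of 17 genes of lipolysis and fatty acid uptake was called by edgeR, with 4 at an unadjusted p-value under 0.05 and 2 called by DESeq2. The 2 with the lowest interaction p-values were Acsl1, which activates fatty acids (interaction -0.86 ± 0.26, edgeR adjusted p = 0.0652), and Lpl, which frees fatty acids from circulating triglyceride (0.74 ± 0.23, adjusted p = 0.0742). Lpl was 4005 to 5738 CPM in chow control, 5081 to 6473 in chow C-3BO, 3231 to 5256 in HFD control and 6888 to 9615 in HFD C-3BO mice. For fatty acid synthesis and elongation, HFD lowered 19 of 24 genes in control and 15 in C-3BO mice, and Elovl3 alone had a called interaction. Triglyceride synthesis had 2 of 18 (Mogat1 and Plin4), of which Plin4 alone was called without HFD C-3BO replicates 4 and 5, and glucose use 1 of 24 (Ldhb).

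In the thermogenic list 4 of 25 tested genes were called (against 2.08% of all tested genes), 2 in each direction. Elovl3 and Bmp8b, a secreted factor of the bone morphogenetic family, had stronger induction, and Ppara, a fatty acid receptor of the nucleus, and Nrg4, a neuregulin released by brown fat, were more negative on HFD. Bmp8b was 2.23, 2.43, 10.8, 1.95 and 2.40 CPM in chow control mice and 0, 0, 0.0687, 0.296 and 0 CPM in HFD control mice. In C-3BO mice it was 6.33, 7.06, 4.18, 1.88 and 2.15 CPM on chow and 2.45, 1.47, 0.734, 14.5 and 2.46 CPM on HFD. The call was lost without HFD C-3BO replicates 4 and 5 (3.89, edgeR adjusted p = 0.0777), of which replicate 4 was the highest. Nrg4 was 116 to 141 CPM in chow control, 121 to 148 in chow C-3BO, 130 to 144 in HFD control and 74.6 to 100 in HFD C-3BO mice, so only HFD C-3BO mice stood apart, and its call was lost too (-0.61, adjusted p = 0.0805). Ppara had effects of 0.42 ± 0.17 and -0.52 ± 0.17, and without the 2 libraries an adjusted p-value of 0.141 by edgeR.

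In the cell cycle and interferon lists many members were lower with C-3BO on chow, and no interaction was called by edgeR. At the share called over all tested genes (2.08%), few calls fall in lists of this size. None of 22 cell cycle genes was called by edgeR or DESeq2 and 1 had an unadjusted p-value under 0.05, with 19 interactions above 0 and a median of 0.46. With C-3BO, 13 of them were lower on chow and 7 on HFD. Top2a, a topoisomerase of dividing cells, was 4.39 to 9.41 CPM in chow control, 0 to 2.08 in chow C-3BO, 3.25 to 14.3 in HFD control and 3.73 to 5.50 in HFD C-3BO mice (interaction 1.54 ± 0.63, adjusted p = 0.210). None of 14 interferon response genes was called by edgeR or DESeq2 and 6 had an unadjusted p-value under 0.05, with a median of 0.62, 10 lower with C-3BO on chow and 6 on HFD. Rsad2, an antiviral enzyme, had effects of -0.86 ± 0.20 and -0.04 ± 0.20 (interaction adjusted p = 0.126). The circadian list had 1 of 18 called (Nr1d1, a repressor of the clock, -0.68 ± 0.17), the collagen and matrix list 1 of 24 (Loxl1, which crosslinks elastin, 1.24 ± 0.31) and the stress response list 1 of 20 (Xbp1). The calls of Nr1d1 and Loxl1 were lost without the 2 libraries, at adjusted p-values of 0.0728 and 0.102 by edgeR.

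Other calls also depended on HFD C-3BO replicates 4 and 5. Sult5a1, a sulfotransferase, was 4.76, 6.55 and 6.49 CPM in the other HFD C-3BO libraries and 29.4 and 20.1 CPM in these. Pzp, a protease inhibitor of plasma, was 1.63, 0.113 and 0.734 CPM in the others and 17.1 and 19.1 CPM in these, the libraries with liver markers. Tmprss6, a liver protease that restrains hepcidin, was 1.09, 1.47 and 2.33 against 4.48 and 6.76 CPM. Their interactions without both libraries had adjusted p-values of 0.128, 0.0835 and 0.0974 by edgeR. Slc47a1, a transporter of organic cations, and Grina hardly moved in size (1.75 to 1.58, and 0.55 to 0.50) and fell just short (0.0505 and 0.0507). The share of the liver and epididymis transcripts in these calls was not tested. Around the threshold itself, Ppa2 (0.0497) and Gadd45gip1 (0.0499), whose calls were lost as well, lay inside and Ndufc1 and Fam213a (both at 0.05 after rounding) outside.

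The mice given CL offer a measure of repeated β3-adrenergic stimulation that did not enter the interaction contrast. Their libraries do share its estimate of the spread. According to the paper, tissue was taken the day after the last injection, so as to look at chronic and not acute effects. All HFD libraries of this cohort held liver and epididymis transcripts, as given above, and their part in the CL values was not tested. HFD Saline replicate 4 had 849126 counts, so that 3 counts were 3.01 CPM there, and the other libraries of the cohort had 3391730 to 15260516. Gpr3 was 9.15 CPM in chow CL replicate 3, against 0.144 to 0.712 in the other chow CL mice and 0.0895 to 0.223 with saline on chow. The source of this level was not tested. Chow CL replicate 5 lay near the saline mice for several genes. Its Ucp1 level was 1645 CPM, against 5946 to 8991 in the other chow CL mice and 1268 to 1866 with saline, and its Adcy3 level was 99.0 CPM, against 226 to 331 and 101 to 160. Of 2384 genes called with CL on chow without this library, it was nearer on the log2(CPM + 1) scale to the saline mean than to the mean of the other CL mice for 1174 (49.2%), while the same count was 52 of 1385 to 313 of 1737 for the other chow CL libraries. Of the 64 stronger induction genes, 43 rose with CL on chow (67.2%, against 9.16% of tested genes) and 51 on HFD (79.7%, against 12.7%), and none was called lower. Without chow CL replicate 5, 40 rose on chow (against 10.6% of tested genes), and without HFD Saline replicate 4, 51 rose on HFD (against 11.2%). For comparison, of the 2415 genes that were higher with C-3BO on HFD without a called interaction, 33.8% rose with CL on chow and 50.4% on HFD. Of the 17 stronger decrease genes, 11 fell with CL on chow (64.7%, against 6.13%) and 16 on HFD (94.1%, against 10.8%). Of the 1997 genes lower with C-3BO on HFD without a called interaction, 17.9% and 38.8% fell. The weaker induction genes were not of this kind, with 2 of 17 higher with CL on chow (11.8%) and 1 on HFD. The weaker decrease genes had 3 of 11 lower on HFD (27.3%). On chow edgeR called 0 of 11 lower, with 3 at an unadjusted p-value under 0.05 and 2 called by DESeq2. Of the reversed genes, 12.6% were higher and 15% lower with CL on HFD, a count that pools both directions of the C-3BO effect. Of the 104 with a positive C-3BO effect on HFD, 19.2% rose and 2.88% fell with CL on HFD. Of the 63 with a negative one, 1.59% rose and 34.9% fell. Over all tested genes 12.7% rose and 10.8% fell. These shares were not tested.

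**Figure D5:**
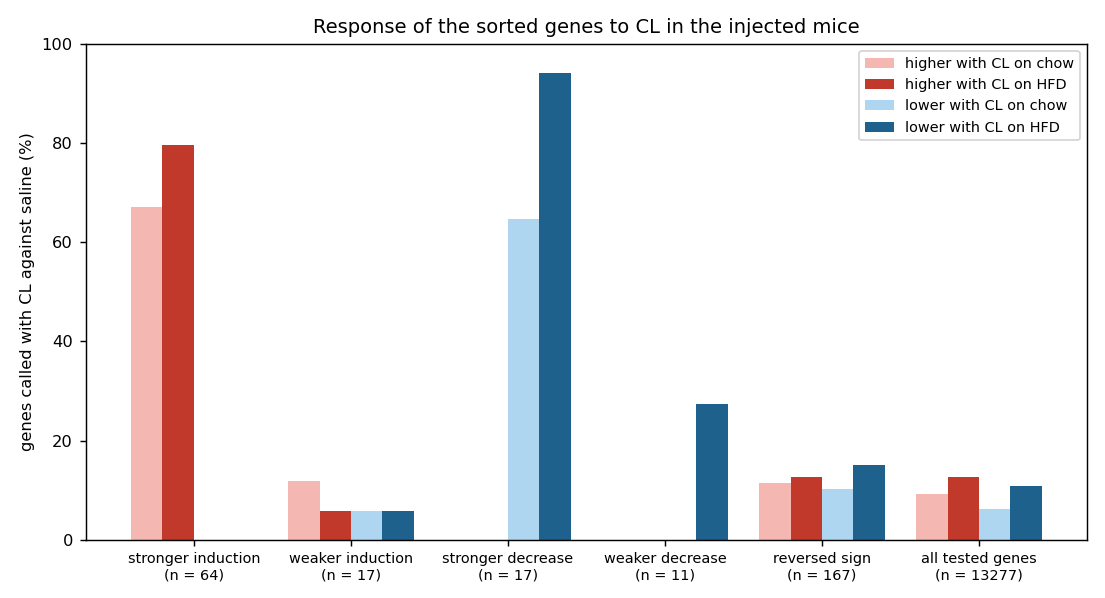
Bars give the percentage of each sorted group (x, with its number of genes) that was called higher or lower with CL against saline (y, from 0 to 100%), on chow and on HFD, with all tested genes at the right. Stronger induction genes were mostly higher with CL (67.2% on chow and 79.7% on HFD) and stronger decrease genes mostly lower (64.7% and 94.1%).

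The interaction of diet with CL was computed in the same way. It was called for 2 of 13277 genes by edgeR (0.0151%), Hcn2 (2.64 ± 0.47) and Hist1h2be (2.70 ± 0.42), both of them stronger induction genes. Without chow CL replicate 5 there were 5 genes, both of these included (Hcn2 2.63, edgeR adjusted p = 0.0180, and Hist1h2be 2.63, 0.00537). The call of Hcn2 was lost without chow saline replicate 2 or 3 (adjusted p = 0.0523 and 0.0518). Hcn2 was 0.757, 2.79, 2.42, 0.102 and 2.47 CPM with saline and 3.05, 5.69, 4.53, 3.46 and 3.97 CPM with CL on chow. During HFD it was 3.03, 2.20, 2.91, 2.01 and 3.18 CPM with saline and 59.4, 37.7, 43.6, 33.0 and 32.9 CPM with CL. The pattern of a small rise on chow and a large one on HFD was thus present in both cohorts. Hist1h2be was 1.62 to 5.18 CPM with saline and 2.85 to 5.10 CPM with CL on chow, and 0 to 1.70 and 6.11 to 9.93 CPM on HFD. Hist1h4h was 3.79 to 6.38 CPM with saline and 7.50 to 10.8 CPM with CL on chow, and 2.01 to 7.47 and 14.4 to 24.7 CPM on HFD. Dusp15 was called with CL on HFD (2.18 ± 0.47) and not on chow (-0.09 ± 0.47). Rbp4 rose on both diets (1.90 ± 0.20 and 2.64 ± 0.22), and Plin4 fell on both (-0.79 ± 0.14 and -1.14 ± 0.14). Gmpr, Tusc5 and Epdr1 had CL effects of 0.77 ± 0.20, -0.13 ± 0.15 and 0.10 ± 0.38 on HFD, of which only the first was called by edgeR.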

How the data were processed

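BAT of 40 mice was profiled by poly(A) RNA sequencing (TruSeq, HiSeq 1500). The authors used STAR for alignment to mm9, HOMER for tag directories and iRNA-seq for exon reads per gene; versions and strandedness are not given in the sources used here. The deposited values are raw counts per gene and mouse, and the deposited gene and exon lengths were not used. The authors' own comparisons used DESeq2.

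Genes passing filterByExpr of edgeR 4.0.16 over the 8 groups (minimum count 10) were kept, 13277 of 20295. All 40 libraries entered 1 quasi-likelihood fit, scaled by TMM, in which each group had its own mean. P-values were adjusted over all tested genes by the method of Benjamini and Hochberg, with a threshold of 0.05. Log2 fold changes are given ± SE (fold change over root F). For CPM, counts were scaled by library total and TMM factor, and levels were not compared between genes. The floor of 3 counts covers counting error only.

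The members, gene lists and tests were chosen with earlier results of these data known. Named genes were Gpr3 and Ucp1, up to 6 genes per sorted group with the lowest interaction p-values called with and without HFD C-3BO replicates 4 and 5 and at a mean of at least 1 CPM in a group, up to 3 called members per list (else the 2 with the lowest p), up to 6 calls lost without those replicates, and Alb and Lcn8. A result that this rule gives is not reported here. Alternatives were DESeq2 1.42.0, other scalings and filters, the 20 libraries alone, a replicate block and leaving out libraries. Liver and muscle marker covariates, the other pairs of libraries and leaving out libraries of the injected cohort were chosen after seeing the data. Replicates are separate mice, and no 2 libraries of a group agreed within sampling noise (lowest chi-square per degree of freedom 5.83). Promoters are from RefSeq (GRCm38.p6), and gene positions from the mm9 annotation. The fits were tested on simulated data. Figures were drawn with matplotlib 3.10.9.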

Additional observations from a re-analysis of the deposited data

Results flagged for a closer look

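Of 237 groups of 5 libraries examined for the genes named here, 13 held a library set apart from the rest by Dixon's test, where chance alone flags about 1 in 20 groups. Among these, Bmp8b was 10.8 CPM in chow control replicate 3 with the next at 2.43, Alb was 1.62 CPM in chow C-3BO replicate 2 with the next at 0.302, and Plk1 was 3.56 CPM in HFD control replicate 2 with the next at 1.94. Hist1h2be was 6.19 CPM and H6pd 188 CPM in chow control replicate 4, with the nearest libraries at 4.03 and 234. Ptrf was 672 CPM in chow control replicate 2, nearest 733. In chow C-3BO mice, Chdh was 158 CPM in replicate 2 (nearest 175), Pip4k2c 100 CPM in replicate 1 (nearest 87.4) and Ldhb 438 CPM in replicate 3 (nearest 383). Pwwp2b was 31.7 CPM and Etfa 1238 CPM in HFD control replicate 4, nearest 36.4 and 1021. HFD C-3BO replicate 4 was the lowest of its group for Pck2 (20.2 CPM, nearest 26.4) and Rasl12 (28.9 CPM, nearest 43.0).

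The C-3BO effect differed between diets, by the interaction test of edgeR, for 179 genes in the positive and 97 in the negative direction.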

How the results depend on the processing

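All 276 interaction genes kept their sign wherever an alternative gave them a value, while counts moved. The 276 were selected on the same or mostly the same libraries, so a kept sign is no separate evidence. With library totals alone 357 were called, of which 79.3% were more positive on HFD (283), against 64.9% with TMM; the sorted groups were then 5 with weaker induction, 27 with stronger decrease and 31 with weaker decrease, and genes past the study's thresholds were 209 induced and 998 reduced on chow and 690 reduced on HFD. DESeq2 called 456 (318 more positive), among them all 276, with 101 stronger induction, 27 weaker induction, 24 weaker decrease and 281 reversed genes. Without a filter there were 117 more positive, 41 stronger induction and 7 weaker decrease genes, and 54.4% were positive. A minimum of 10 counts in each library left 184 induced and 260 reduced genes on chow and 268 and 210 on HFD. The 20 libraries alone gave 168 genes (108 positive, 60 negative), 36 with stronger induction, 6 with stronger decrease and 106 reversed. Without HFD C-3BO replicates 4 and 5 there were 126 (79 and 47), with 24, 4, 9, 6 and 83 in the order stronger induction, weaker induction, stronger decrease, weaker decrease and reversed. In the same order, the liver marker covariate, chosen after seeing the data, gave 141 genes (87 and 54) with 26, 8, 9, 6 and 92. An interaction of at least 1 in log2 units gave 108 (88 and 20) with 34, 1, 4, 5 and 64, and an adjusted p-value under 0.1 gave 516 (329 and 187) with 113, 34, 35, 28 and 306. The interaction of Lcn8 was 0.00 without replicates 4 and 5. The cause of these shifts was not tested.

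Leaving out 1 library at a time gave 172 to 427 interaction genes, 95 to 272 more positive, 65 to 184 more negative, 34 to 125 with stronger induction, 10 to 29 with weaker induction, 9 to 31 with stronger decrease, 5 to 18 with weaker decrease and 101 to 285 reversed. The count of interaction genes moved by over 1.5 times without chow C-3BO replicate 3 (427), HFD control replicate 4 (415), HFD C-3BO replicate 4 (172) and HFD control replicate 1 (179). The other pairs of HFD C-3BO libraries gave 120 to 272, with 138, 159 and 163 without replicates 1 and 4, 2 and 4, and 3 and 5. Genes induced were 296 to 342 on chow and 528 to 709 on HFD, and genes reduced 528 to 669 and 337 to 556.

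Replicate numbers are shared between groups, but no label ties them to litters or days. The deviations of same-numbered control and C-3BO mice correlated at -0.04 to 0.44 on chow (3 of 5 over 0.1) and -0.03 to 0.15 on HFD (1 of 5). The mean on chow was 0.17, against -0.04 for other numbers, and 4 of 5 correlated best with their own number. On HFD the means were 0.06 and -0.01, with 2 of 5. A shared structure on chow was not tested further than by the block. With the replicate block 254 genes were called, 242 of them among the 276, so the count did not move by over 1.5 times.

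Without libraries of the injected cohort, chosen after seeing the data, the counts with CL ranged, 1 library left out at a time, from 33 to 43 stronger induction genes higher on chow and 49 to 52 on HFD, and from 9 to 11 stronger decrease genes lower on chow and 14 to 16 on HFD. The interaction of diet and CL was called for 2 to 24 genes (24 without chow saline replicate 5, 8 without chow CL replicate 3), and for 5 without chow CL replicate 5 and HFD Saline replicate 4 together.

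Groups of 5 mice and totals down to 5026435 counts in the C-3BO cohort limit genes under about 1 CPM, and HFD Saline replicate 4, with 849126 counts, limits the values of the injected cohort further. The 46 named genes with a called interaction all kept the call under DESeq2, RLE factors, library totals, the block and the muscle covariate, 38 with the 20 libraries alone, 36 without replicates 4 and 5 and 39 with the liver covariate.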
